A study of Mus musculus with 12 samples.

Results

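The astrocyte genes described here were 10 genes that are widely used to recognize astrocytes: Gfap, Aqp4, Slc1a2, Slc1a3, Gja1, Aldh1l1, S100b, Sparcl1, Glul and Kcnj10. They were chosen by symbol, and all 10 were found among the 19268 genes of the deposited table. The study sequenced RNA from the forebrain, dissected without the olfactory bulb, of male C57BL/6J mice that were wild-type (WT) or homozygous knock-out (KO) for Shank3, a gene encoding a scaffold protein of the excitatory postsynapse. The KO animals lacked internal exons of Shank3 as whole animals, so that a genotype difference could not be assigned to the astrocytes themselves. Mice were juvenile (postnatal day 25, P25) or adult (postnatal day 60, P60), and each combination of age and genotype (P25-WT, P25-KO, P60-WT and P60-KO) was represented by 3 libraries. The labels name no treatment.

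Astrocytes take up the glutamate released at synapses through transporters, convert it to glutamine, and return the glutamine to neurons. They also take up potassium and water, which leave the tissue at endfeet that wrap the blood vessels, and they are joined to one another by gap junctions. In the mouse forebrain, astrocytes are produced mainly in the first weeks after birth and then mature while synapses are formed and pruned. An intermediate filament network distinguishes them, and its amount rises when astrocytes react to injury.

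Values are normalized counts, that is, estimated read counts that the authors scaled so that libraries can be compared. The study's methods also name a step that adjusts for the size of a gene, and how it entered the deposited values is not given in the sources used here. Because whole tissue was sequenced, a lower value can reflect fewer astrocytes or less RNA per astrocyte, and these cannot be told apart. The table summed to between 30568259 and 32348554 normalized counts per library, and each of the 6 P60 totals, the highest being 31077647, lay under each of the 6 P25 totals, the lowest being 31577834. Shank3 itself was at 48.0% of the WT mean in P25-KO and at 50.2% in P60-KO, with no overlap between KO and WT libraries. A pair of libraries stood apart from the rest through genes of the cerebellum: Gabra6, a receptor subunit of cerebellar granule cells, was at 221 in P60-WT replicate 2 and at 68.5 in P60-KO replicate 1, and at no more than 4.40 in the other 10 libraries. Forebrain regional markers were detected in every library, with summed levels between 9614 and 11568. Some results on the 10 genes are also given without these 2 libraries.

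All 10 astrocyte genes were well above the middle of the table. Their mean values lay between the 79.8th percentile of all genes for Aldh1l1 and the 99.9th percentile for Slc1a2, and no library had a value of 0 for any of them. The defining genes of astrocytes were thus present in every library.

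For a comparison of levels between genes, mean values were divided by the length of each gene's longest annotated transcript. On this scale Sparcl1, which encodes the secreted protein hevin, was the highest with 17601 normalized counts per kilobase, and its libraries ranged from 16534 to 18558. Glul, the glutamine synthetase gene, followed with 14445 per kilobase and a range of 12583 to 16489, so its range nearly reached that of Sparcl1 without overlapping it. Slc1a2, the gene of the main glutamate transporter GLT-1, came next with 6386 per kilobase (range 5245 to 7370), and Slc1a3, the gene of the transporter GLAST, followed with 3150 (range 2940 to 3591). The libraries of these 4 genes did not overlap with one another. Below them, Gfap was at 2454 per kilobase (1903 to 3277), S100b at 2088 (1735 to 2431), Kcnj10 at 1691 (1540 to 1868) and Gja1 at 1361 (1161 to 1615). The ranges of Slc1a3 and Gfap overlapped, as did those of Gfap and S100b, S100b and Kcnj10, and Kcnj10 and Gja1. Aqp4 was at 871 (713 to 1019) and Aldh1l1 was lowest at 458 (371 to 523), both clear of their neighbours. With the length of all exons together in place of the longest transcript, S100b and Kcnj10 stood ahead of Slc1a3 and Gfap, and Aqp4 stood ahead of Gja1. If the deposited values already held a division by gene length, the order would be that of the undivided means: Slc1a2 (74050), Sparcl1 (48561), Glul (40331), Slc1a3 (13969), Kcnj10 (9141), Gfap (6499), Gja1 (5293), Aqp4 (4404), S100b (3098) and Aldh1l1 (1912).

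**Figure D1:**
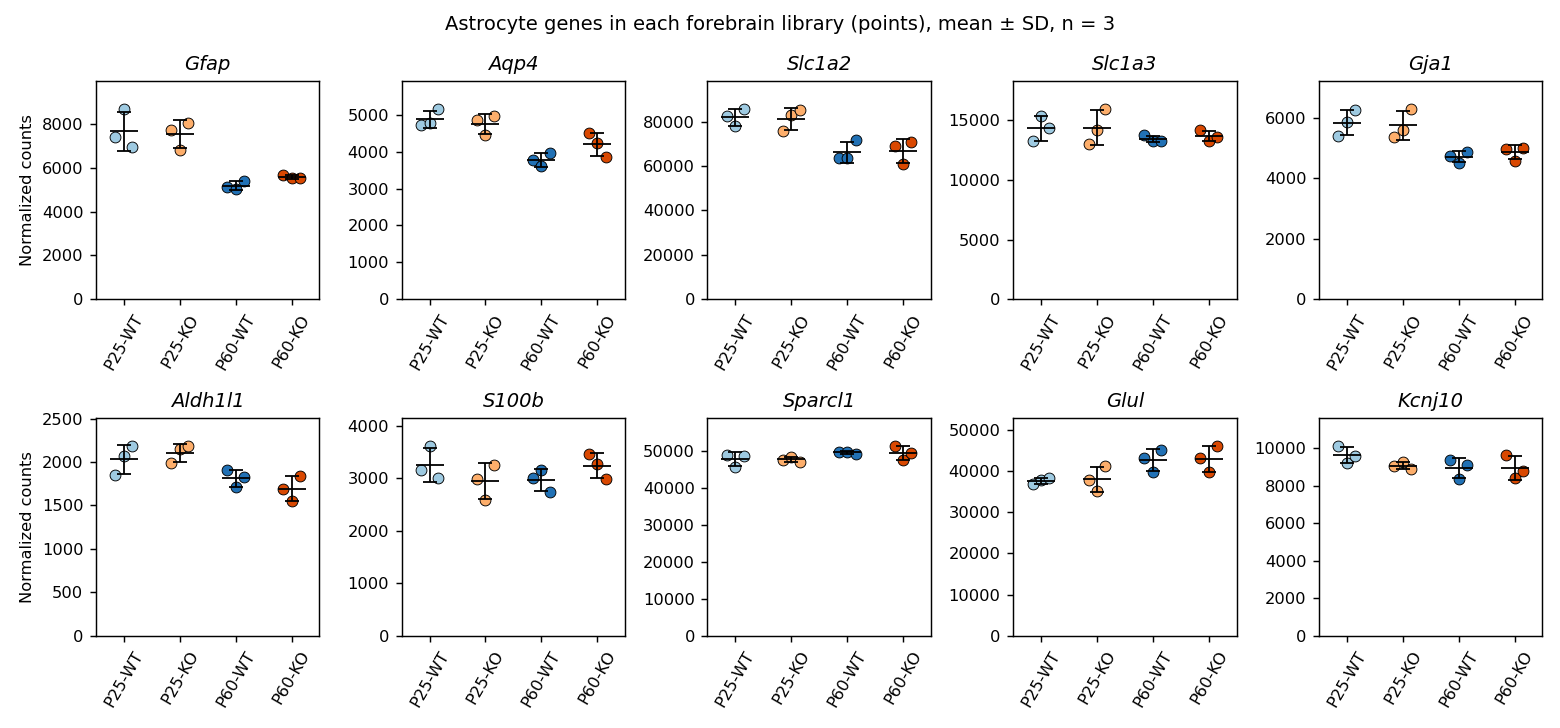
Normalized counts of the 10 astrocyte genes in each of the 12 libraries, with 1 panel per gene and 1 point per library. Bars show the mean ± SD of the 3 libraries of a group, and every axis starts at 0. For Gfap, Slc1a2 and Gja1 each P60 library lay under each P25 library, whereas the libraries of S100b, Slc1a3 and Kcnj10 overlapped between ages.

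The age comparison asked whether the adult forebrain differed from the juvenile forebrain in these genes. Over both genotypes, with 12 libraries and genotype as a covariate, 5 of the 10 genes were lower at P60 (Gfap, Slc1a2, Gja1, Aqp4 and Aldh1l1) and 1 was higher (Glul) at a limma adjusted p under 0.05. Of all 17594 genes tested, 19.3% were lower and 18.3% were higher at P60. The median log2 fold change was -0.16 over the 10 genes and 0.00 over all genes tested. No overlap between all P25 and all P60 libraries was found for 3 of the 10 genes, each lower at P60, and for 10.8% of all genes in that direction. None of the 10 was higher at P60 without overlap, against 8.79% of all genes. The labels name no preparation or sequencing batch, so age and an unnamed batch that followed it cannot be told apart.

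Within WT, with 6 libraries, 4 of the 10 genes were lower at P60 (Gfap, Aqp4, Slc1a2 and Gja1) and none was higher. Of all 17581 genes tested in WT, 4.99% were lower and 3.66% were higher. Within KO, 4 genes were lower as well (Gfap, Slc1a2, Aldh1l1 and Gja1), and none was higher, against 11.3% lower and 9.37% higher among 17596 genes. The same 4 genes that were called in each genotype were also those whose P60 libraries all lay under the P25 libraries of that genotype, as 18.4% of all genes did in WT and 20.5% did in KO. The calls within WT depended on single libraries. None of the 10 genes was called when P60-WT replicate 1, 2 or 3 was left out, 1 was called without P25-WT replicate 1, and 3 without P25-WT replicate 3. In KO, 1 gene was called without P25-KO replicate 3, 2 without P25-KO replicate 2, and 3 without P60-KO replicate 1 or 2. When the eBayes step had no trend, 0 of the 10 genes were called in WT and 1 in KO. Over both genotypes the count stayed at 5 lower and 1 higher when any 1 library was left out, and also without both libraries that were high in cerebellar genes.

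Scaling each library to the same total moved the balance of calls in the whole table. In WT, 644 genes higher and 877 lower became 991 higher and 681 lower. In KO, 1649 higher and 1992 lower became 2108 and 1620. Over both genotypes, 3219 higher and 3397 lower became 4038 and 2730. Under that scaling the 5 astrocyte genes called lower and the 1 called higher over both genotypes were still called, whereas in WT 2 of the 4 calls were lost, those of Slc1a2 (-0.26, adjusted p = 0.0524) and Gja1 (-0.26, adjusted p = 0.0652). Over 12 alternatives in WT the limma adjusted p ran from 0.00572 to 0.127 for Slc1a2 and from 0.0111 to 0.137 for Gja1.

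Gfap encodes the glial fibrillary acidic protein, the intermediate filament by which astrocytes are most often stained (chr11:102887336-102900912, minus strand, assembly GRCm38). Its normalized counts in the P25-WT libraries were 7411, 8678 and 6956, and in P25-KO 7728, 6824 and 8060. At P60 they were 5120, 5039 and 5412 in WT and 5677, 5528 and 5556 in KO. Every P60 library was under every P25 library, and the 3 P60-KO libraries were the closest together. Gfap fell by 0.49 on the log2 scale over both genotypes (SE 0.06, adjusted p = 2.3e-05 with limma), the largest age difference among the 10 genes, and 5.73% of all genes had a more negative value. It was lower by a log2 fold change of -0.56 in WT (adjusted p = 0.0113) and of -0.43 in KO (adjusted p = 0.00228). Without the 2 libraries that were high in cerebellar genes the difference over both genotypes was -0.49 (adjusted p = 0.00035, and between 3.9e-06 and 0.000398 over 18 alternatives).

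To show the DNA next to a gene that fell at P60 in every age comparison, the 250 bases before the RefSeq start of Gfap are given in the direction of transcription (RefSeq, assembly GRCm38.p6, chr11:102897201-102897450, minus strand). This window lies within the span of the GENCODE gene, whose longest annotation starts further upstream, and it holds no annotated exon. Motif letters were searched on both strands: TATAAA for the TATA box, TTCNNNGAA for STAT factors, TGANTCA for AP-1, TTGGCA for a half-site of NFI, TGACGTCA for CRE and ACAATGG for SOX factors.
Gfap: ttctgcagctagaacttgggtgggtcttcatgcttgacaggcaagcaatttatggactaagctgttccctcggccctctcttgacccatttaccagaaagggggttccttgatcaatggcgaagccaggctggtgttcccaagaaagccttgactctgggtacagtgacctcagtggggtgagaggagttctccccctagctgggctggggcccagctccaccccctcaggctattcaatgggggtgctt
None of these letters was found in the Gfap window. The 3 motifs AP-1, STAT and TATA box were found in 6.75%, 7.02% and 12.4% of 32851 such windows of all genes, NFI in 12.3%, SOX in 3.02% and CRE in 1.55%.

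Slc1a2 encodes GLT-1, which clears most of the glutamate released in the forebrain (chr2:102658659-102790784, plus strand). In the P25-WT libraries its normalized counts were 82660, 77880 and 85459, and P25-KO gave 75733, 83115 and 85033. The P60-WT libraries held 63532, 63442 and 71473, and P60-KO held 68771, 60815 and 70686. The highest P60 value thus lay under the lowest P25 value. Slc1a2 fell by 0.30 on the log2 scale (SE 0.05, limma adjusted p = 0.000334), with -0.31 in WT (adjusted p = 0.0316) and -0.29 in KO (adjusted p = 0.0159). An exon of the gene overlaps an exon of Gm13872 on the opposite strand, and the use of strand in the counting is not given in the sources used here.

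Slc1a3 encodes GLAST, the transporter that precedes GLT-1 in development and is most abundant in the cerebellum (chr15:8634124-8710764, minus strand). Its values were 13274, 15346 and 14380 in P25-WT and 13039, 14226 and 15924 in P25-KO. They were 13774, 13265 and 13297 in P60-WT and 14163, 13316 and 13625 in P60-KO. All P60 libraries lay within the range of the P25 libraries, which spread more widely. The log2 fold change was -0.08 (95% interval -0.18 to 0.03, limma adjusted p = 0.224), and Slc1a3 did not pass the test in either genotype.

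Glul encodes glutamine synthetase, which turns the captured glutamate into glutamine and is also made by oligodendrocytes (chr1:153899944-153909723, plus strand). It was at 36819, 37723 and 38337 in P25-WT and at 37763, 35132 and 41162 in P25-KO. At P60, WT had 43244, 39852 and 45017 and KO had 43204, 39679 and 46038. The WT libraries of the 2 ages did not overlap, whereas 1 P25-KO library exceeded the lowest P60-KO library. Glul rose by a log2 fold change of 0.18 over both genotypes (SE 0.05, limma adjusted p = 0.0089). Within each genotype the estimate was the same, 0.18, and was not called (adjusted p = 0.108 in WT and 0.101 in KO). Glul shared 20.4% of its 31-base transcript words with other genes, mainly the pseudogene Glns-ps1, so its value may include reads that the authors' counting divided between copies, and its exons overlap Teddm2 on the opposite strand.

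Gja1 encodes connexin 43, the main gap junction protein of astrocytes (chr10:56377330-56402513, plus strand). Its P25-WT libraries were at 5416, 5865 and 6257 and those of P25-KO at 5371, 5606 and 6282. The P60-WT values were 4741, 4516 and 4874, and the P60-KO values were 4979, 4590 and 5018. No P60 library reached the lowest P25 library. Gja1 fell by 0.28 on the log2 scale (SE 0.05, limma adjusted p = 0.000732), with -0.31 in WT (adjusted p = 0.0409) and -0.24 in KO (adjusted p = 0.0313). Gja1, like Gfap and Slc1a2, was called lower in all 3 age comparisons, and its RefSeq window is shown because it held a match to the motif letters (chr10:56377050-56377299, plus strand, GRCm38.p6, no annotated exon), with the AP-1 letters in capitals.
Gja1: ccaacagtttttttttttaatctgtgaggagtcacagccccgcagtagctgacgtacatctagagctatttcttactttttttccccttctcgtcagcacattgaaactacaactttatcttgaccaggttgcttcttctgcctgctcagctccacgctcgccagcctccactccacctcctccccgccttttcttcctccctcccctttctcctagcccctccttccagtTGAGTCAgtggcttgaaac
The AP-1 letters TGAGTCA lay 19 to 13 bases before the start. Windows could be read for 8 of the 10 genes. That of Slc1a2, which holds part of an annotated exon and is not printed, had no match, and the only other matches were STAT and TATA letters in Slc1a3 and an NFI half-site in S100b.

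Aqp4 encodes the water channel of the endfeet, on chromosome 18. Normalized counts were 4728, 4773 and 5150 in P25-WT, and 4854, 4445 and 4960 in P25-KO. In P60-WT they were 3776, 3601 and 3967, and in P60-KO they were 4501, 4233 and 3863. All P60-WT libraries were under all P25 libraries, whereas the highest P60-KO library, replicate 1, exceeded the lowest P25-KO library. Aqp4 fell by 0.27 on the log2 scale over both genotypes (SE 0.05, limma adjusted p = 0.00127). It was called in WT (-0.37, adjusted p = 0.0225) and not in KO (-0.18, adjusted p = 0.0895), and the test of the difference between genotypes is given below with the interaction.

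Kcnj10 encodes the potassium channel Kir4.1, which sits beside Aqp4 in the endfeet and is also found in oligodendrocytes (chr1:172341210-172374085, plus strand). It was at 10098, 9207 and 9588 in P25-WT and at 9046, 9252 and 8901 in P25-KO. The P60 values were 9352, 8325 and 9113 in WT and 9641, 8416 and 8751 in KO. The ages overlapped in both genotypes. Its log2 fold change was -0.07 (95% interval -0.16 to 0.03, limma adjusted p = 0.264). In KO alone it was -0.02, and 0.01 with every library scaled to the same total, neither of them called.

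Aldh1l1 encodes a folate enzyme whose expression covers nearly all astrocytes (chr6:90486427-90600203, plus strand). The P25-WT libraries held 1852, 2067 and 2182 normalized counts and the P25-KO libraries 1988, 2150 and 2181. At P60 the values were 1907, 1713 and 1823 in WT and 1693, 1550 and 1839 in KO. In KO the ages were separate, while in WT 1 P60 library exceeded the lowest P25 library. Aldh1l1 fell by 0.24 on the log2 scale over both genotypes (SE 0.06, limma adjusted p = 0.00574), was called in KO (-0.32, adjusted p = 0.0157) and was not called in WT (-0.16, adjusted p = 0.26). It shared 11.4% of its transcript words with Gm15756 and Gm45901, which overlap its exons.

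S100b encodes a calcium-binding protein of astrocytes that oligodendrocytes also express (chr10:76253853-76261159, plus strand). Its libraries were at 3150, 3607 and 2999 in P25-WT and at 2992, 2575 and 3252 in P25-KO. They were at 3003, 3148 and 2738 in P60-WT and at 3462, 3272 and 2979 in P60-KO. No group stood clear of another, and S100b had the widest spread within groups of the 10 genes, with a pooled SD of 0.13 on the log2 scale. The estimate over both genotypes was 0.01 (95% interval -0.15 to 0.16, limma adjusted p = 0.96), with -0.13 in WT and 0.14 in KO, neither of them called.

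Sparcl1 encodes hevin, which astrocytes secrete and which promotes the formation of excitatory synapses (chr5:104079111-104113733, minus strand). It was at 48885, 45618 and 48648 in P25-WT, 47561, 48397 and 46998 in P25-KO, 49688, 49755 and 49063 in P60-WT, and 51202, 47599 and 49317 in P60-KO. Sparcl1 had the narrowest spread within groups, with a pooled SD of 0.04 on the log2 scale. In WT its P60 libraries all lay above its P25 libraries, as did those of Glul, and as they did for 17.6% of all genes, but the fold change was small. Over both genotypes it was 0.05 (95% interval -0.02 to 0.12, limma adjusted p = 0.22). With every library scaled to the same total it became 0.09 and was called (adjusted p = 0.0406, the lowest of 18 alternatives that reached up to 0.484).

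**Figure D2:**
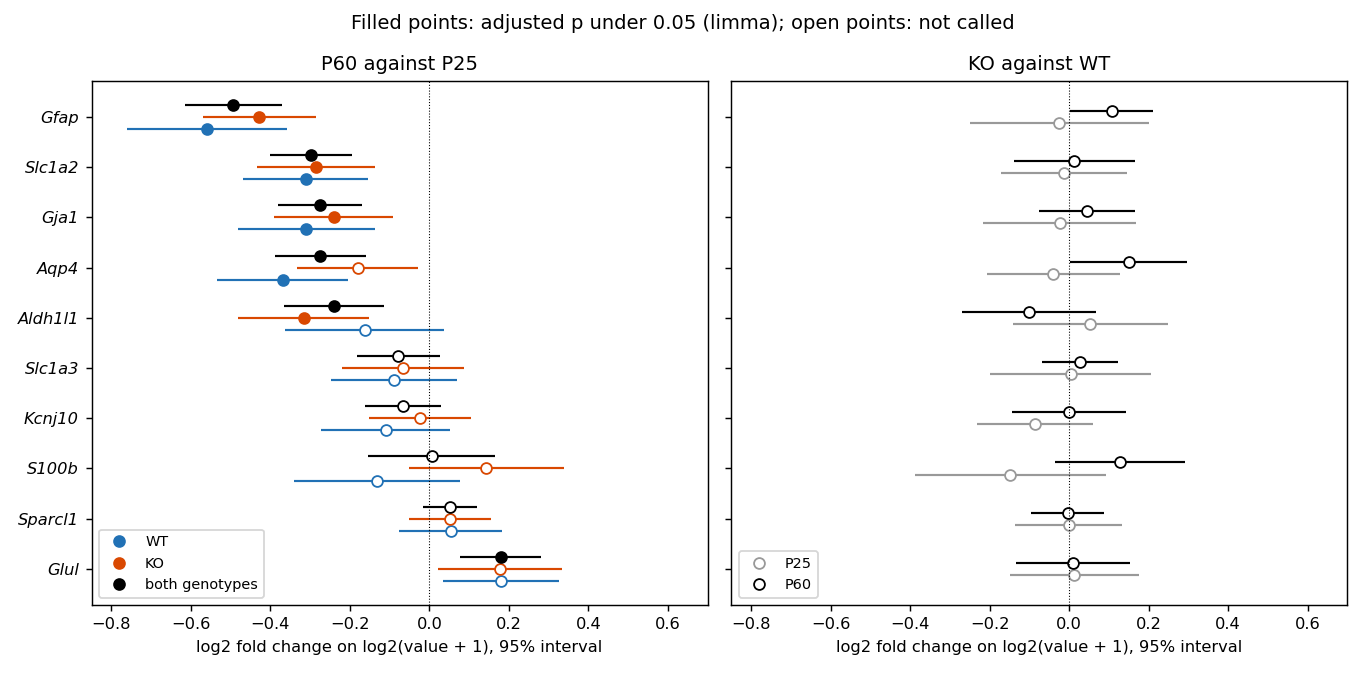
Log2 fold change of each astrocyte gene with its 95% interval from limma, for P60 against P25 on the left (WT, KO and both genotypes) and KO against WT on the right (P25 and P60). Filled points had an adjusted p under 0.05; the age differences ran from -0.49 for Gfap to 0.18 for Glul over both genotypes, and no point of the genotype comparisons was filled.

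To compare the genes with one another, 3 ratios between them were computed within each library, which removes any factor common to a whole library. Their age differences were tested by an exact permutation of the ages within each genotype (400 arrangements, two-sided, smallest possible p = 0.005), and p-values were adjusted over the 3 ratios. The ratios were chosen with the values of these genes known, so their tests add no independent evidence to the fold changes above. The ratio of Gfap to S100b lay between 2.32 and 2.65 in the 6 P25 libraries and between 1.60 and 1.98 in the 6 P60 libraries. Its log2 change was -0.50 (exact permutation p = 0.005, adjusted p = 0.0075), and no P60 library reached a P25 library. The ratio of Glul to Slc1a2, the enzyme against the transporter, lay between 0.423 and 0.499 at P25 and between 0.628 and 0.681 at P60. It changed by 0.48 on the log2 scale (exact permutation p = 0.005, adjusted p = 0.0075), and all P60 libraries were above all P25 libraries. The ratio of Slc1a2 to Slc1a3, the 2 glutamate transporters, was between 5.08 and 6.23 at P25 and between 4.57 and 5.37 at P60. Here the ages overlapped, with a log2 change of -0.22 (exact permutation p = 0.015, adjusted p = 0.015). Without the 2 libraries that were high in cerebellar genes, the log2 changes were -0.45, 0.50 and -0.21 in the same order.

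**Figure D3:**
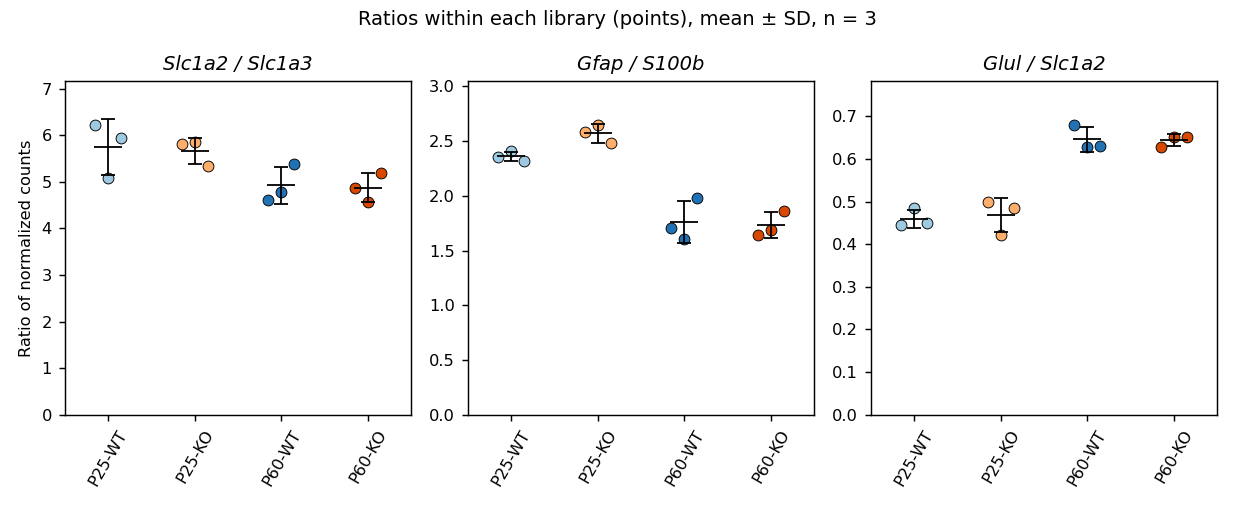
Ratio of the normalized counts of 2 astrocyte genes within each library, with 1 point per library and the mean ± SD of the 3 libraries of each group. The P25 and P60 points were separate for Gfap over S100b and for Glul over Slc1a2, and overlapped for Slc1a2 over Slc1a3.

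The genotype comparison asked whether loss of the Shank3 exons went with a difference in astrocyte genes. At P25, 0 of the 10 genes were called with limma and 0 had an unadjusted p under 0.05. KO and WT libraries overlapped for each of the 10, whereas they did not overlap for 4.76% of the 17515 genes tested. Only 1 gene of the table, 0.00571%, was called at P25, and this was Shank3 itself, while 238 had an unadjusted p under 0.05. The estimates ran from -0.15 for S100b (95% interval -0.39 to 0.09) to 0.05 for Aldh1l1 (95% interval -0.14 to 0.25). Gfap was at -0.02 (95% interval -0.25 to 0.20) and Slc1a2 at -0.01 (95% interval -0.17 to 0.15). Scaling each library to the same total turned the estimate of Slc1a2 to 0.00020. The p-values do not show that KO and WT were alike, only that the 3 libraries per group did not separate them.

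At P60, 0 of the 10 genes were called with limma and 2 had an unadjusted p under 0.05. The eBayes step without a trend called 0 genes of the whole table and missed even Shank3. Its 0 among the 10 genes therefore adds nothing. Of all 17610 genes tested, 1 (0.00568%), again Shank3, was called in the main fit and 440 had an unadjusted p under 0.05. Gfap was higher in each P60-KO library than in each P60-WT library. A separation in either direction, higher or lower, was seen for 7.79% of all genes. The log2 fold change of Gfap was 0.11 (95% interval 0.00 to 0.21, unadjusted p = 0.0459 and adjusted p = 0.9995 in limma). Aqp4 had a log2 fold change of 0.15 (95% interval 0.00 to 0.30, unadjusted p = 0.0479, adjusted p = 0.9995), and its KO and WT libraries overlapped. Without the 2 libraries that were high in cerebellar genes the estimates were 0.07 for Gfap and 0.06 for Aqp4. Those of Slc1a2, Slc1a3, Gja1, Glul and Kcnj10 turned negative without these 2 libraries, from -0.0024 for Gja1 to -0.11 for Kcnj10, none of them called. P60-KO replicate 1, one of these libraries, had values above the group mean for all 10 astrocyte genes, and P60-WT replicate 2, the other, for 2 of the 10. With all libraries, the 8 genes besides Gfap and Aqp4 lay between -0.10 for Aldh1l1 and 0.13 for S100b. Among other lists at P60, of which no gene was called, 8 of 8 endothelial markers had negative estimates (median -0.19). So had 24 of 32 reactive astrocyte genes (median -0.13), and at P25, 9 of 10 microglia markers (median -0.16). The median over all genes was 0.00 at P60 and -0.01 at P25. Summed levels of endothelial markers overlapped at P60, with 5401 to 8485 in KO and 7103 to 9132 in WT. Genes of a list share the same libraries, so their signs are not independent. The part of these lists in the estimates of the 10 genes was not tested.

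The interaction asked whether the genotype difference itself differed between the ages. With limma, 0 of the 10 genes and 0 of 17594 genes (0.0%) were called, and 0 of the 10 and 288 of all genes had an unadjusted p under 0.05. S100b had the largest estimate, 0.28 on the log2 scale (95% interval -0.02 to 0.57, unadjusted p = 0.0634), being lower in KO at P25 and higher in KO at P60 by estimates that were not called. Aqp4 followed with 0.19 (95% interval -0.03 to 0.40, unadjusted p = 0.0802), and Aldh1l1 with -0.15 (95% interval -0.40 to 0.10). Without the 2 libraries that were high in cerebellar genes the estimate of Aqp4 was 0.10, that of S100b 0.27 and that of Aldh1l1 -0.20, none of them called. Markers of oligodendrocytes, which also express S100b, are given beside it, and their part in its estimates was not tested. Of 12 such markers, 0 were called in the genotype comparisons or the interaction with limma, 12 had negative estimates for KO against WT at P25 (median -0.14), 11 had positive estimates at P60 (median 0.02), and 12 had positive estimates in the interaction (median 0.19). Their summed level was 428085 to 505234 in P25-KO and 472179 to 558033 in P25-WT, and 214367 to 237885 in P60-KO and 209928 to 229189 in P60-WT. The calls of Aqp4 in WT alone and of Aldh1l1 in KO alone were therefore not shown to differ between genotypes. The age comparisons in WT and KO and the genotype comparisons at P25 and P60 share the same 12 libraries and are not independent of one another.

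Other genes of astrocytes were described by 7 lists written from general knowledge, in which a gene may stand on more than 1 list. Their counts stand beside the 18.3% of all genes that were higher and the 19.3% that were lower at P60 over both genotypes. Among 36 other astrocyte markers, 3 rose (8.33%) and 9 fell (25%) at P60, and the median log2 fold change was -0.03. The 3 that rose were Megf10 (0.48), a receptor for the engulfment of synapses, Ranbp3l (0.41) and Kcnj16 (0.15), whose product forms channels with that of Kcnj10. Among those that fell were Ntsr2 (-0.40), a neurotensin receptor, Gpr37l1 (-0.36), Hepacam (-0.19), a cell adhesion protein, and Lcat (-0.42), which esterifies cholesterol. The other 24 genes of the list were not called.

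Of the 12 genes that act with the transporters and glutamine synthetase in the glutamate and glutamine cycle, 3 rose, 3 fell and the median was 0.02. Among those that rose were the neutral amino acid transporters Slc38a1 (0.30) and Slc38a2 (0.38). Slc17a7, the vesicular glutamate transporter of cortical neurons, fell by 0.33 on the log2 scale, Got2, a mitochondrial aminotransferase, fell by 0.18, and Slc38a5, an amino acid transporter of low level, fell by 0.71.

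Around Aqp4, 14 genes of the proteins that anchor it in the endfoot were tested, of which 3 rose and 6 fell, with a median of -0.13. Dtna (0.20), the gene of the dystrobrevin of astrocytes, Sntb2 (0.48), a syntrophin, and Dmd (0.26), the dystrophin gene, were higher at P60. Lamc1 (-0.76), a laminin of the basement membrane, Hepacam (-0.19) and Dag1 (-0.19), dystroglycan, were among those that were lower.

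The list of proteins that astrocytes secrete or display at synapses held 14 genes, of which 2 rose, 7 fell and the median was -0.29. Ncan (-0.93) and Bcan (-0.41), the proteoglycans neurocan and brevican of the perisynaptic matrix, fell, as did Tnc (-0.85), which encodes tenascin C. Sparc, the counterpart that opposes hevin at synapses, fell by 0.52 on the log2 scale, from means of 19468 in P25-WT and 18209 in P25-KO to 13110 in P60-WT and 13152 in P60-KO. Sparcl1, which is among the 10 genes, was not called. The 2 that rose were Megf10 and Gpc5 (0.15), a glypican.

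Of 10 lipid and apolipoprotein genes, 1 rose and 6 fell, with a median of -0.34. Hmgcs1 (-0.83) and Sqle (-0.50) of cholesterol synthesis, Fads2 (-0.40), a fatty acid desaturase, and Clu (-0.28), clusterin, were among those that fell, and Abca1 (0.34), which exports cholesterol, rose. Cholesterol synthesis genes are also expressed by oligodendrocytes. Of 16 genes of immature astrocytes and radial glia, 1 rose and 9 fell, with a median of -0.33. Fabp7 (-1.001), a fatty acid binding protein of radial glia, Nfia (-0.46) and Nfib (-0.30), transcription factors of gliogenesis, and Tnc were lower, and Gli1 (0.52), a target of Sonic hedgehog signalling, was higher.

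In the list of reactive astrocyte genes, 32 of the 35 genes found in the table reached the tested level, of which 3 rose, 5 fell and the median was 0.04. Cp (0.67), ceruloplasmin, Amigo2 (0.18) and Ptgs2 (0.33), which neurons also express, were higher. Fbln5 (-0.39), Vim (-0.37), the second intermediate filament of astrocytes, Cd44 (-0.39) and H2-D1 (-0.17) were lower. In the genotype comparisons at P25 and P60 and in the interaction, 0 genes of any of these 7 lists were called with limma.

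**Figure D4:**
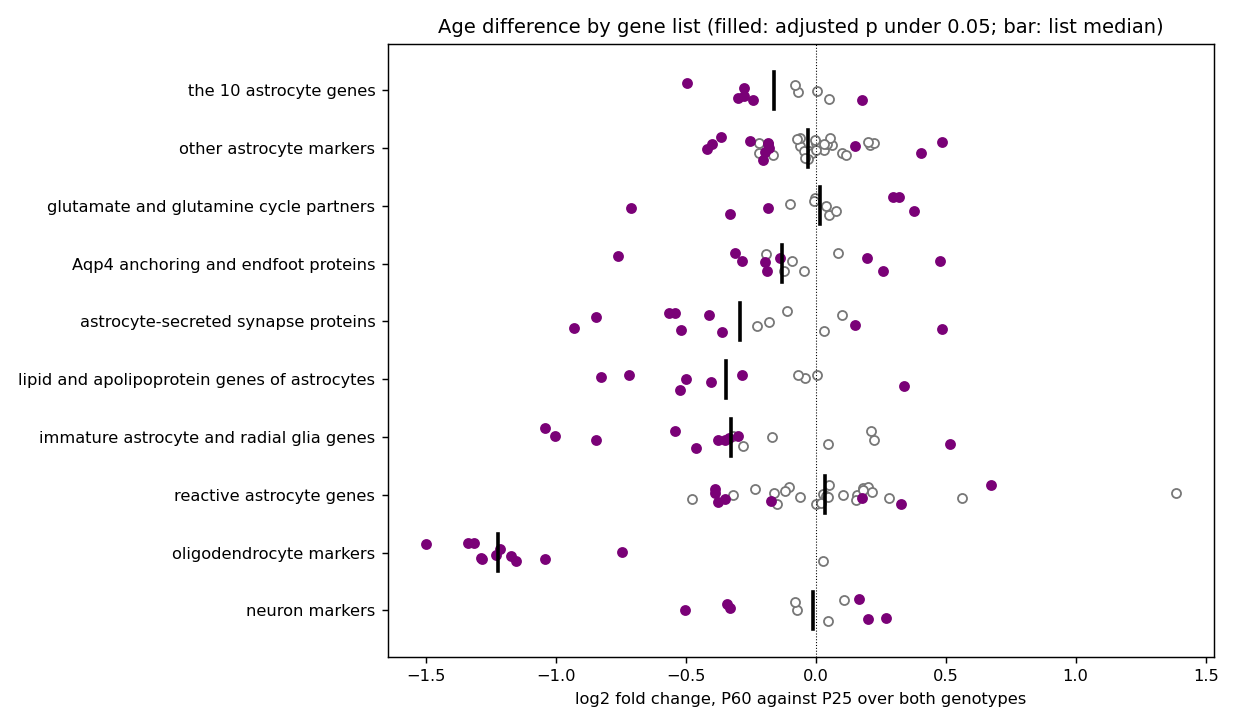
Log2 fold change of P60 against P25 over both genotypes, with 1 point per gene, for the 10 astrocyte genes, 7 other lists of astrocyte genes, and markers of oligodendrocytes and neurons. Filled points had an adjusted p under 0.05 in limma and the bar is the list's median, which was -0.16 for the 10 genes and -1.22 for oligodendrocyte markers.

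Markers of other cell types were compared between the ages over both genotypes as well, again beside 18.3% higher and 19.3% lower among all genes, and their part in the astrocyte results was not tested. Of 12 oligodendrocyte markers, 11 were lower at P60, with a median of -1.22, and their summed level was 428085 to 558033 at P25 and 209928 to 237885 at P60. Cldn11, which forms tight junctions in myelin, was at a mean of 14245 in P25-WT and of 5611 in P60-WT. Of Glul, S100b and Kcnj10, which oligodendrocytes also express, Glul was called higher at P60, and S100b and Kcnj10 were not called. Of 6 oligodendrocyte precursor markers, 5 were lower, with a median of -0.72, among them Gpr17 (-1.20) and Cspg4 (-0.67). Their summed level was 8013 to 10813 at P25 and 5157 to 5700 at P60. Of 10 microglia markers, 4 were lower (C1qc, Trem2, C1qa and Tmem119), with a median of -0.19 and a summed level of 8771 to 11240 at P25 and 8195 to 10332 at P60. Of 8 endothelial markers, 2 were higher (Flt1 and Abcb1a), with summed levels of 5548 to 7031 at P25 and 5401 to 9132 at P60. Of 8 ependymal and choroid plexus markers, 2 were higher (Kl and Clic6), with summed levels of 11079 to 15041 at P25 and 12990 to 18832 at P60. Of 10 neuron markers, 3 were higher (Snap25, Gad2 and Gad1), 3 were lower (Tubb3, Slc17a7 and Stmn2) and the median was -0.01, with a summed level of 205360 to 220141 at P25 and 208323 to 217221 at P60. The 10 astrocyte genes summed to 206075 to 222753 at P25 and to 188998 to 207673 at P60. No gene of these lists was at 0 in every library. Of 8 markers of cerebellum, hindbrain and cord, 5 were in the table, with summed levels of 73.6 to 114 at P25, 98.8 to 395 in P60-KO and 72.9 to 1254 in P60-WT, and 0 of the 4 tested over both genotypes were called with limma, while En2, named after its values were seen, was called higher within KO (0.66, adjusted p = 0.0351). The largest differences over both genotypes were those of Gabra6 (2.28, adjusted p = 0.147) and Pcp2 (1.48, adjusted p = 0.154). Of 6 forebrain regional markers, 1 was higher (Neurod6) and 2 were lower at P60, among them Emx1.

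Among 12168 genes with a mean of at least 100, the profile over the 12 libraries most like that of Gfap was that of Acot7, a neuronal acyl-CoA thioesterase (Pearson r = 0.990 on the log2 scale), followed by Tubb4b, a beta-tubulin (0.988), and Tssc4 (0.987). These libraries share the age difference, and within an age, over 6 libraries, the r of Acot7 was 0.976 at P25 and 0.794 at P60. Tubb4b was at 0.964 and 0.665, and Tssc4 at 0.900 and 0.912. The profile most like the mean of the 10 genes was that of Egln2, an oxygen-sensing hydroxylase (r = 0.958), followed by Twf2, an actin-binding protein (0.955), and Ehbp1l1 (0.951). Their r was 0.918, 0.923 and 0.931 within P25 and 0.743, 0.715 and 0.769 within P60. These correlations are descriptions of 12 libraries, chosen as the highest of many, and none of the 6 genes belongs to the astrocyte lists.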

How the data were processed

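RNA from mouse forebrain was sequenced in 12 libraries (TruSeq RNA kit v2, per the labels), 3 in each of 4 groups, with group and replicate number as in the titles of the samples. The deposited values are signal on a count scale: the authors estimated counts with Salmon, read them in through tximport and applied DESeq2 normalization, with an adjustment for gene size that their methods name without detail (Salmon 1.1.0, R 3.6.2, DESeq2 1.26.0 and assembly GRCm38 per the submitters' processing notes). They are not whole reads, so the sequencing depth is unknown, counting intervals were not given, and precision is set by having 3 libraries per group. The columns of all 12 libraries were used. The paper gives 3 mice for each of these groups.

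Identifiers were matched to GENCODE M21 (GRCm38), in which 19252 of 19268 were found. Log2(value + 1) was fitted with limma 3.58.1 under R 4.3.3, using lmFit and a trended eBayes step, for genes averaging at least 10 in the fitted libraries. P-values were adjusted over all genes tested by the Benjamini-Hochberg method, with a threshold of 0.05, and are named adjusted p. Fold changes on this scale understate the change of low genes. WT or KO libraries alone (6) entered the comparisons within a genotype, libraries of 1 age alone (6) the genotype comparisons, and all 12 the age comparison over both genotypes and the interaction. The script was tested on simulated data. Ratios were tested by exact permutation. Same-numbered libraries were checked for shared deviations (correlations from -0.07 to 0.17) and were not treated as pairs.

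The 10 genes and the other lists were chosen with earlier results of these data known. All 10 genes are given; of each other list, the genes named are the called ones in the age comparison over both genotypes, at most 4 per direction by smallest adjusted p. Some genes of these lists are not reported here by name. The alternatives were a pseudocount of 5, no filter on low values, scaling to the same total, eBayes without a trend, a fit of all 12 libraries, a replicate block and leaving out libraries. Leaving out the 2 libraries with cerebellar genes, and the alternatives for the ratios, were added after seeing the data. Promoter windows are from RefSeq (GRCm38.p6).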

Additional observations from a re-analysis of the deposited data

How the results depend on the processing

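The age differences over both genotypes called 6 of the 10 genes under every alternative but scaling to the same total, which called 7, whereas the counts within 1 genotype changed. Within WT, 2 of the 10 genes were called with libraries scaled to the same total and 0 with eBayes without a trend, and leaving out 1 library gave 0 to 4. For all genes in WT the count was 192 without a trend, 3442 in a fit of all 12 libraries and 122 to 2403 with 1 library left out. Within KO, 1 of the 10 genes was called without a trend and 1 to 4 with 1 library left out, and all genes counted 1725 without a trend and 2093 to 3230 with 1 library left out. KO against WT at P25 gave 0 genes without a trend, 0 with the replicate block and 0 to 8 with 1 library left out, at P60 it gave 0 without a trend and 1 to 3, and the interaction gave 0 to 1. Why these counts changed was not tested. The block moved no other count by over 1.5 times and changed no call of the 10 genes in number (4 in WT, 4 in KO, 6 over both). Same-numbered libraries shared only a number: all 6 libraries correlated best with their own number in P60-KO and P60-WT, and 2 of 6 in each other pair of groups. Of 343 values of single genes and ratios under other settings, 329 kept direction and side of the threshold, 9 lost the call, 1 gained it and 4 changed sign. With libraries left out, 469 of 549 were kept, 23 lost the call and 57 changed sign.

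Scaling to the same total turned the log2 fold change of Kcnj10 to 0.012 for age in KO and to -0.0025 for KO against WT at P60, and those of Slc1a2 and Sparcl1 for KO against WT at P25 to 0.00020 and 0.012. The log2 fold changes that changed sign with libraries left out were not called, and their ranges were as follows. For KO against WT at P25 they were -0.013 to 0.11 for Aldh1l1, -0.071 to 0.0078 for Aqp4, -0.093 to 0.067 for Gfap, -0.089 to 0.026 for Gja1, -0.047 to 0.068 for Glul, -0.050 to 0.037 for Slc1a2, -0.071 to 0.073 for Slc1a3 and -0.033 to 0.016 for Sparcl1. For KO against WT at P60 they were -0.0024 to 0.086 for Gja1, -0.046 to 0.064 for Glul, -0.11 to 0.042 for Kcnj10, -0.040 to 0.078 for Slc1a2, -0.0068 to 0.047 for Slc1a3 and -0.031 to 0.022 for Sparcl1. For the interaction they were -0.059 to 0.055 for Glul, -0.019 to 0.13 for Kcnj10, -0.026 to 0.091 for Slc1a2, -0.046 to 0.098 for Slc1a3 and -0.030 to 0.029 for Sparcl1. For age in KO they were -0.079 to 0.019 for Kcnj10 and -0.14 to 0.0082 for Slc1a3. For age over both genotypes it was -0.051 to 0.055 for S100b. The 3 ratios kept their direction and stayed at a permutation p under 0.05. With 3 libraries per group and unknown depth, differences between KO and WT of the sizes given could not be separated from the spread between libraries.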
